A study of Mus musculus with 9 samples.

Results

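The cell-surface proteoglycans of the syndecan family (Sdc1, Sdc2, Sdc3 and Sdc4), the hyaluronan receptor gene Cd44, the intracellular proteoglycan gene Srgn and the heparan sulfate-cleaving enzyme gene Hpse were followed in macrophages sorted from mouse liver. These 7 genes were taken by symbol from the 24312 genes of the table, and each symbol had 1 entry. They were chosen by family and by their levels under both diets, which were known beforehand, so the diet differences below describe the genes and carry no test. With diet-induced steatohepatitis the make-up of the syndecan family differed: Sdc1 and Sdc4 were higher and Sdc2 and Sdc3 lower, Hpse was far higher, and Cd44 and Srgn differed little.

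Syndecans span the cell membrane and carry long sulfated sugar chains, mostly heparan sulfate, that bind growth factors, chemokines and matrix proteins at the cell surface. Serglycin, the product of Srgn, is the proteoglycan of secretory granules in blood-derived cells, and CD44 is a membrane glycoprotein that binds hyaluronan and can itself carry glycosaminoglycan chains. Heparanase cuts heparan sulfate chains into fragments. The sheddases ADAM10, ADAM17 and membrane-type matrix metalloproteinases cut syndecan and CD44 ectodomains from the cell.

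All mice were wild type, by the methods of strain C57BL/6J, and those given the disease diet were males aged 6 to 12 weeks at its start. CDA-HFD, a choline-deficient high-fat diet in which defined amino acids replace protein and which leads to steatohepatitis with fibrosis, was given for 10 or for 7 weeks, and the reference mice received a normal diet (ND). Liver macrophages were sorted as Ly6C-low and F4/80+ cells, a gate that both resident Kupffer cells and monocyte-derived macrophages can enter. Each group held 3 libraries, described in the source as individual animals and named here 10w 1 to 10w 3, 7w 1 to 7w 3 and ND 1 to ND 3.

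Levels are in FPKM, fragments per kilobase of transcript, scaled to the mapped reads of the library, so levels of different genes can be set side by side. The depth estimated from the steps between low values was 5747126 to 6153846 reads in 10-week, 5434783 to 5633803 in 7-week and 5361930 to 5899705 in ND libraries, and libraries held 10990 to 11273 genes at 1 FPKM or more. The macrophage markers summed to 923 to 979 FPKM in CDA-HFD libraries and 1039 to 1090 FPKM in ND libraries (3 of 6 called lower, 1 higher). By these sums the macrophage label held in all 9. Kupffer cell markers were lower with CDA-HFD (8 of 8 called), summing to 913 to 1135 FPKM against 1965 to 2079 FPKM in ND. Markers of hepatic lipid-associated macrophages were higher (6 of 6 called), with sums of 1170 to 1372 FPKM in CDA-HFD and 119 to 140.5 FPKM in ND. Monocyte markers were higher for 6 of 8 and lower for 1, with sums of 580.1 to 744 FPKM in CDA-HFD and 268.5 to 307 FPKM in ND. In bulk RNA, fewer cells of a type and less RNA per cell cannot be told apart, which holds for every value below.

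The genes lie on 6 chromosomes of the mouse build GRCm38, and all 7 are protein coding in GENCODE M21. Sdc1 lies at chr12:8771323-8793715 on the forward strand, Sdc2 at chr15:32920723-33034935 forward, Sdc3 at chr4:130792537-130826319 forward and Sdc4 at chr2:164424247-164443887 on the reverse strand. Cd44 lies at chr2:102811141-102901665, Srgn at chr10:62493833-62527451 and Hpse at chr5:100679484-100719716, all on the reverse strand. Promoter windows of 300 bases, 250 before and 50 after the start, were available from RefSeq (GRCm38.p6) for 6 of the 7 genes, with 2 for Srgn. The windows of Sdc1 and Hpse, which were higher with CDA-HFD, and of Sdc3, which was lower, are shown 5′ to 3′ to set the start regions of genes with opposite differences side by side. Capitals mark the GC box, GGGCGG or its reverse complement, the motif bound by Sp1-type zinc finger factors.
Sdc1 (chr12:8771146-8771445, forward strand): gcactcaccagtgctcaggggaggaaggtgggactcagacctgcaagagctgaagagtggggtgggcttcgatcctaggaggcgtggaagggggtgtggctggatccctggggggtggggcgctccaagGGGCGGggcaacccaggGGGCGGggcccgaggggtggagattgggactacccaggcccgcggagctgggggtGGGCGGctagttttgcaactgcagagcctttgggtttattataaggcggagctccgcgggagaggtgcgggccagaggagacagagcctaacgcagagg
Hpse (chr5:100719667-100719966, reverse strand): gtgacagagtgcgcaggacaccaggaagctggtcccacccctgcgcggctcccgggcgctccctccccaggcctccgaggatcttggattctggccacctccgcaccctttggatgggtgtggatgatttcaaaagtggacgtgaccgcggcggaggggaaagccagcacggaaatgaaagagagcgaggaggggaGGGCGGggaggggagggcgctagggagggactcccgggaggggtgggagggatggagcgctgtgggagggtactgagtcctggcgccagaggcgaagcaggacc
Sdc3 (chr4:130792287-130792586, forward strand): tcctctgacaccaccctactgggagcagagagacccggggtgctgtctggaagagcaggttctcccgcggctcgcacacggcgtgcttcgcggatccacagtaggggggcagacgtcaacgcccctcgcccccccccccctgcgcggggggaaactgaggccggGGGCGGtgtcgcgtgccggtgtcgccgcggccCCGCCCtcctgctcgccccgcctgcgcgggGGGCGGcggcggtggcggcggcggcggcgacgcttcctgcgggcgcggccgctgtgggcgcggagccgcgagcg
The GC box was found in 5 of the 7 member windows, against 35.7% of the 32851 mouse promoter windows of this length. It occurred in windows of genes that were higher with CDA-HFD (Sdc1, Sdc4 and Hpse) and of genes that were lower (Sdc3 and Cd44). The Sdc3 window was 77.7% G and C, the Hpse window 67.0% and the Sdc1 window 66.3%, while the median of all windows was 52.7%. Letters searched on both strands for AP-1 (TGANTCA), the MITF and TFE E-box (CACGTG), Egr (GCGNGGGCG) and RBPJ (GTGGGAA) were absent from the 7 member windows. The only NF-kB pattern searched, a strict form of that site, was also absent. The shares of all windows that held these patterns were 7.81%, 7.15%, 5.55%, 6.38% and 1.2%, in that order, and the Egr letters can overlap a GC box. Other forms of the NF-kB site were not searched, so their absence from the member windows was not tested. The TATA box letters TATAAA were in 1 of the 7 member windows, that of Srgn, against 13.6% of all windows, and the Ets letters GAGGAA were in 2, those of Sdc1 and Cd44, against 28.3%.

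Sdc1, the syndecan best known from epithelia and plasma cells, stood at 37.8, 46.5 and 35.8 FPKM at 10 weeks and at 57.6, 66.0 and 43.7 FPKM at 7 weeks of CDA-HFD, against 1.01, 0.379 and 1.41 FPKM in ND. All 6 CDA-HFD libraries were high and all 3 ND libraries near the lower end of detection, with no overlap. Means were 40.0 ± 5.67 FPKM at 10 weeks, 55.8 ± 11.3 FPKM at 7 weeks and 0.933 ± 0.520 FPKM in ND (SD, n = 3 each), and the mean over CDA-HFD was 51.3 times that in ND. On the log2(FPKM + 1) scale, where differences of low genes come out too small, it was higher by 4.67 (SE 0.20). In ND libraries the Sdc1 value rested on an estimated 6.1 to 22.3 reads per library.

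Sdc2, a syndecan known from mesenchymal cells and liver, ran the other way. It was listed at 0.466, 0.328 and 0.629 FPKM at 10 weeks and at 1.58, 0 and 1.07 FPKM at 7 weeks, against 44.8, 46.0 and 49.0 FPKM in ND. The ND libraries were high and close together, and no CDA-HFD library came near them. Means were 0.474 ± 0.151 FPKM at 10 weeks, 0.885 ± 0.807 FPKM at 7 weeks and 46.6 ± 2.19 FPKM in ND (SD, n = 3 each), so that Sdc2 was 68.6 times as high in ND as over the CDA-HFD libraries. The log2 difference was −4.89 (SE 0.29). A value of 0 in this table can be a failed estimate, so 7w 2 is given only as listed at 0.

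Sdc3, a syndecan first described in the nervous system, was the most abundant of the 7 genes in ND. It stood at 64.9, 132 and 121 FPKM at 10 weeks and 87.0, 100.2 and 145 FPKM at 7 weeks, against 237, 238 and 251 FPKM in ND. CDA-HFD libraries were lower without overlap, but they spread far more than those of ND. The coefficient of variation of Sdc3 was 33.8% at 10 weeks and 27.3% at 7 weeks, against 3.23% in ND. Means were 106 ± 35.8 FPKM at 10 weeks, 111 ± 30.2 FPKM at 7 weeks and 242 ± 7.83 FPKM in ND (SD, n = 3 each), with a log2 difference of −1.20 (SE 0.27). Among the 24312 genes of the table Sdc3 ranked 1105th by mean FPKM at 10 weeks, 1068th at 7 weeks and 99th in ND. Removal of duplicate single-end reads would compress high values, with a limit estimated at 339 to 373 FPKM in the ND libraries, and Sdc3 was the member nearest to it. That limit is approximate, since the highest gene over 1000 bases lay above it in each library. With values corrected for that limit, an alternative chosen after seeing the data, the log2 difference was −1.65, and the coefficient of variation was 38.4% at 10 weeks, 33.6% at 7 weeks and 4.53% in ND.

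Sdc4, the syndecan of focal adhesions, was higher with CDA-HFD. Its levels were 91.1, 97.6 and 75.2 FPKM at 10 weeks and 88.9, 107 and 94.2 FPKM at 7 weeks, against 30.4, 28.1 and 20.5 FPKM in ND. The lowest CDA-HFD library, 10w 3, lay above the highest ND library. Means were 88.0 ± 11.6 FPKM at 10 weeks, 96.7 ± 9.22 FPKM at 7 weeks and 26.3 ± 5.19 FPKM in ND (SD, n = 3 each), a mean over CDA-HFD 3.51 times that in ND and a log2 difference of 1.78 (SE 0.12). Unlike Sdc1, Sdc4 was well above 1 FPKM in every library.

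**Figure D1:**
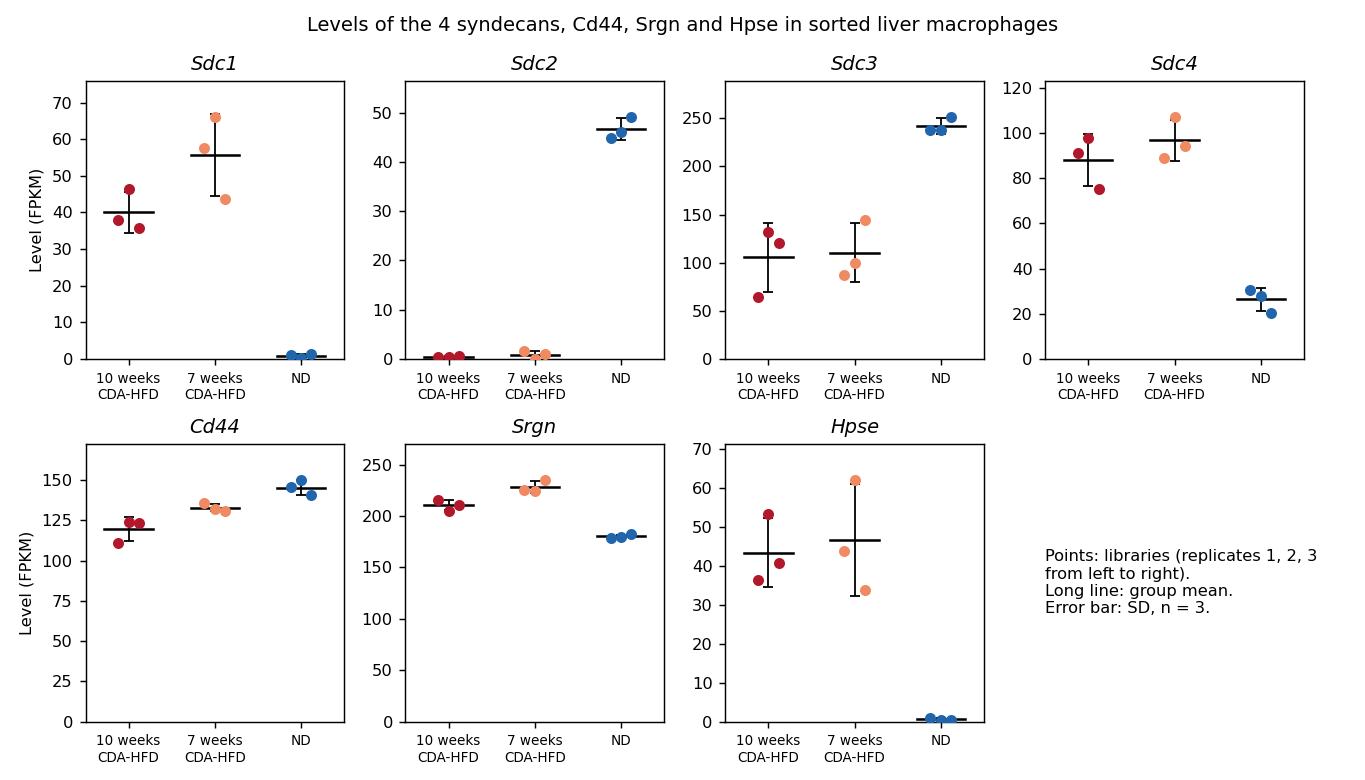
Level of each gene in FPKM (vertical axis, linear from 0) in every library of 10 weeks of CDA-HFD, 7 weeks of CDA-HFD and ND; points are libraries, long lines group means and error bars the SD of 3 libraries. Sdc1 and Hpse were near 0 in ND and Sdc2 near 0 in CDA-HFD, while Cd44 and Srgn stayed between 111 and 235 FPKM in all 9 libraries.

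Set side by side per length, the syndecans made up a different mixture under each diet. Sdc3 held 33.4%, 47.7% and 52.0% of the summed syndecan FPKM at 10 weeks and 37.0%, 36.7% and 51.0% at 7 weeks, against 75.7%, 76.1% and 78.0% in ND. Sdc4 held 46.9%, 35.4% and 32.3% at 10 weeks and 37.8%, 39.1% and 33.2% at 7 weeks, against 9.70%, 9.0% and 6.36% in ND. Sdc3 and Sdc4 were thus the leading pair in CDA-HFD macrophages, and Sdc4 exceeded Sdc3 in 3 of those 6 libraries, 10w 1, 7w 1 and 7w 2. Sdc1 took 17.2% ± 2.06 at 10 weeks, 21.4% ± 5.15 at 7 weeks and 0.294% ± 0.160 in ND (SD, n = 3 each). For Sdc2 the share was 0.210% ± 0.080 at 10 weeks, 0.350% ± 0.337 at 7 weeks and 14.8% ± 0.475 in ND. Sdc1 exceeded Sdc2 in each CDA-HFD library, while in each ND library Sdc2 came next after Sdc3. The summed syndecan FPKM was 234 ± 40.9 at 10 weeks, 264 ± 25.5 at 7 weeks and 316 ± 5.31 in ND, and its highest CDA-HFD library (284 FPKM) lay below its lowest ND library (312 FPKM).

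**Figure D2:**
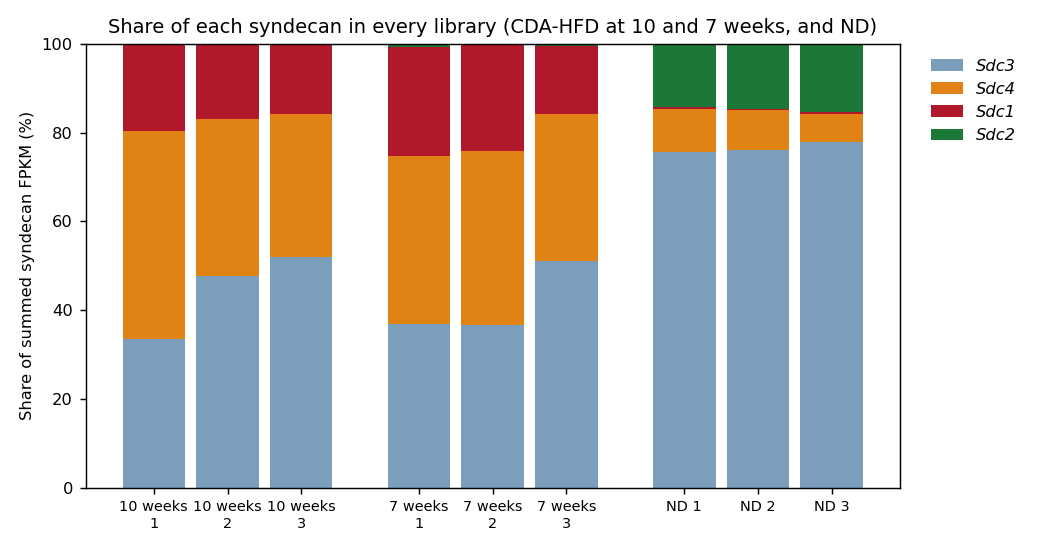
Share of each syndecan in the summed FPKM of Sdc1 to Sdc4 (vertical axis, percent), 1 bar per library for 10 weeks of CDA-HFD, 7 weeks of CDA-HFD and ND. Sdc3 made up at most 52.0% in CDA-HFD and at least 75.7% in ND, Sdc1 made up 15.4% to 24.5% in CDA-HFD and under 1% in ND, and Sdc2 under 1% in CDA-HFD and 14.3% to 15.2% in ND.

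Cd44 differed by little. It stood at 111, 124 and 123 FPKM at 10 weeks and at 135, 132 and 131 FPKM at 7 weeks, against 146, 150.0 and 140.5 FPKM in ND. The ND libraries were the highest and the 10-week libraries the lowest, with no overlap between any pair of groups. Means were 119 ± 7.49 FPKM at 10 weeks, 133 ± 2.33 FPKM at 7 weeks and 145 ± 4.77 FPKM in ND (SD, n = 3 each), and the log2 difference between CDA-HFD and ND was −0.21 (SE 0.04). GENCODE lists 8 basic transcripts for Cd44, and the deposited values are per gene, so its splice forms were not analysed here.

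Srgn was among the most abundant genes of the sorted cells under every diet, ranking 181st at 10 weeks, 160th at 7 weeks and 310th in ND. Its levels were 215, 205 and 211 FPKM at 10 weeks and 225, 224 and 235 FPKM at 7 weeks, against 179, 179 and 182 FPKM in ND. Each group was tight, with coefficients of variation of 2.35%, 2.66% and 0.993% in the same order, and the groups did not overlap. The log2 difference between CDA-HFD and ND was 0.28 (SE 0.03). Because these levels also lay near the estimated limit of duplicate removal, the correction moved this difference to 0.44.

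Hpse, like Sdc1, was near 0 in ND. It stood at 36.3, 53.3 and 40.8 FPKM at 10 weeks and at 43.9, 62.1 and 33.8 FPKM at 7 weeks, against 1.06, 0.375 and 0.571 FPKM in ND. Every CDA-HFD library exceeded 33 FPKM and only ND 1 reached 1 FPKM among the ND libraries. Means were 43.4 ± 8.84 FPKM at 10 weeks, 46.6 ± 14.3 FPKM at 7 weeks and 0.670 ± 0.354 FPKM in ND (SD, n = 3 each), a mean over CDA-HFD 67.2 times that in ND and a log2 difference of 4.77 (SE 0.21). The related gene Hpse2, whose product binds heparan sulfate without cutting it, was listed at 0 in all 9 libraries.

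All 7 genes passed the filter of at least 1 FPKM in at least 3 libraries, Hpse and Sdc1 through their CDA-HFD libraries and Sdc2 mainly through its ND libraries. In each of the 7 genes the ranges of both diets stayed apart, a pattern shown by 40.6% of the 11783 genes tested in that comparison. The choice of the genes fixed this count, and nothing was read from it. For the 3 genes that were near 0 in 1 diet group, markers of other cells that express them were also examined. Plasma and B cell markers, relevant to Sdc1, summed to 203 to 233 FPKM in CDA-HFD and 247 to 265 FPKM in ND (4 of 7 tested lower), and without Xbp1, which many cells express, to 72.5 to 101 FPKM and 104 to 124 FPKM. Most of the sum without Xbp1 was Cd79b, at 70.7 to 91.0 FPKM in CDA-HFD and 70.7 to 101 FPKM in ND. Cd79a averaged 1.75 FPKM in CDA-HFD and 11.2 FPKM in ND, and Ms4a1 0.962 and 6.61 FPKM. Jchain was at most 0.671 FPKM in CDA-HFD and 3.94 FPKM in ND. Cholangiocyte markers without Spp1, which macrophages also express, summed to 2.12 to 7.53 FPKM in CDA-HFD and 1.65 to 2.44 FPKM in ND, with Krt19, Sox9 and Cldn7 under 1 FPKM in all 9 libraries. Hepatocyte markers summed to 101 to 146 FPKM in CDA-HFD and 202 to 434 FPKM in ND (7 of 9 tested lower, 1 higher). Stellate cell and fibroblast markers summed to 14.8 to 31.2 FPKM in CDA-HFD and 4.91 to 12.2 FPKM in ND, with Lrat, Reln, Col1a1 and Rgs5 under 1 FPKM in all 9 (3 of 5 tested higher, 1 lower). Sinusoidal endothelial markers without Stab2, a gene of the hyaluronan list, summed to 65.5 to 174 FPKM in CDA-HFD and 94.3 to 138 FPKM in ND (3 of 8 tested higher, 1 lower). The part of these cells in the syndecan and Hpse levels was not tested.

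The order of the 7 genes by mean level changed with diet. In CDA-HFD macrophages at both times it began with Srgn, followed by Cd44, Sdc3 and Sdc4, whose ranges overlapped from each neighbour to the next. Hpse and Sdc1 came after them, with Hpse ahead at 10 weeks and Sdc1 ahead at 7 weeks and ranges that overlapped each other at both times, and Sdc2 was last. In ND the order was Sdc3, Srgn, Cd44, Sdc2, Sdc4, Sdc1 and Hpse, and only the last pair of neighbours overlapped. By rank among all genes, Sdc1 stood at 3674 at 10 weeks, 2692 at 7 weeks and 11334 in ND, and Sdc2 at 12057, 11291 and 3118 in the same order.

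The second comparison asked whether the genes differed between 10 and 7 weeks of the diet. The genes were chosen with levels under both diets known, which include these libraries, so the p values of this contrast are descriptive. None of the 7 was called by limma at an adjusted p below 0.05, where 0.127% of the genes tested (15 of 11783) were called, and 2 of the 7, Cd44 and Srgn, had an unadjusted p below 0.05, as had 15.5% of all genes tested. Both were lower at 10 weeks. For Srgn the log2 difference was −0.11 (95% interval −0.18 to −0.05, adjusted p = 0.123) and for Cd44 it was −0.15 (95% interval −0.26 to −0.05, adjusted p = 0.178). These 2 of the 7 genes had 10-week and 7-week libraries that did not overlap, while 20.6% of all genes tested showed that pattern in this comparison. Sdc1 was lower at 10 weeks by an estimate that did not pass, −0.46 (95% interval −0.95 to 0.04, adjusted p = 0.361), and 10w 2 (46.5 FPKM) lay above 7w 3 (43.7 FPKM).

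The estimates for the other 4 genes were smaller than their standard errors. Sdc4 gave −0.14 (95% interval −0.44 to 0.17), Sdc2 −0.25 (−0.97 to 0.47), Sdc3 −0.09 (−0.84 to 0.65) and Hpse −0.07 (−0.60 to 0.46), with adjusted p values of 0.677, 0.765, 0.924 and 0.922. The sign of the estimate turned when 1 library was left out for Sdc2 (0.03 without 7w 1), for Sdc3 (0.11 without 7w 3 and 0.22 without 10w 1) and for Hpse (0.15 without 7w 2 and 0.04 without 10w 1). The intervals of Sdc2 and Sdc3 still allowed differences close to 1 on the log2 scale. Against ND, which both times share, the log2 differences at 10 and 7 weeks were 4.44 and 4.89 for Sdc1, −5.02 and −4.77 for Sdc2, −1.25 and −1.16 for Sdc3, and 1.71 and 1.85 for Sdc4. Those of Cd44 were −0.28 and −0.13, those of Srgn 0.22 and 0.34, and those of Hpse 4.74 and 4.81.

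**Figure D3:**
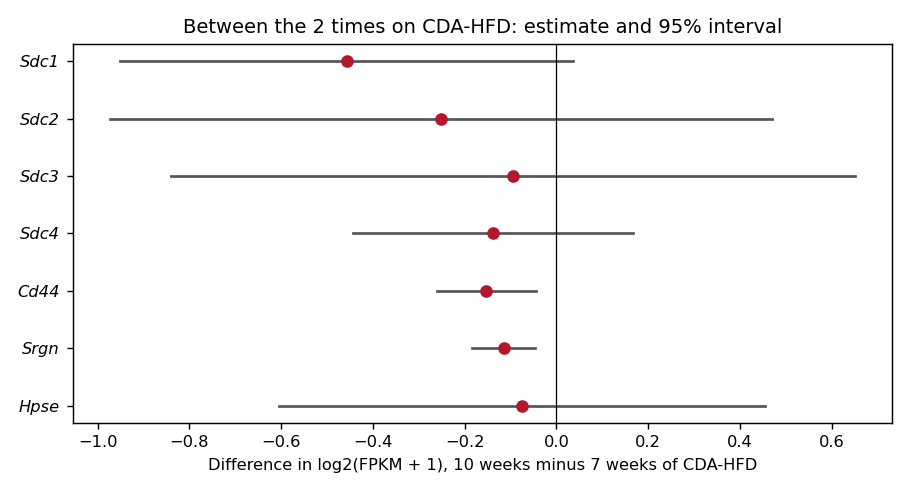
Difference in log2(FPKM + 1) between 10 and 7 weeks of CDA-HFD for each of the 7 genes; points are limma estimates and lines their 95% intervals, without adjustment for the number of genes. All 7 estimates were below 0, as was the median of all genes tested (−0.006), and the intervals of Cd44 and Srgn alone lay wholly below 0. The estimates of Sdc2, Sdc3 and Hpse changed sign when single libraries were left out.

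The genes that build, edit and read the chains were taken from 10 lists of 107 genes in all, none of them a member, of which 72 were tested. With CDA-HFD 22 of the 72 rose and 21 fell, which is 59.7% of them, while 47% of all genes tested were called in that comparison (22.8% higher and 24.3% lower). The lists were chosen with earlier results of these data known. Nothing was therefore read from the difference between these shares, and the adjusted p values of list genes against ND are descriptive. The median log2 difference of all genes tested was −0.03.

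Most genes of chain initiation were not called. In the list of linker enzymes and donor supply all 12 genes were tested and 3 rose, with a median log2 difference of 0.10. Pxylp1, the phosphatase that removes phosphate from the linker xylose, averaged 5.52 FPKM at 10 weeks, 4.31 FPKM at 7 weeks and 0.439 FPKM in ND (log2 difference 1.99, SE 0.36, adjusted p = 6.36e-04). Xylt1, a xylosyltransferase that starts the chain, was between 0.381 and 4.30 FPKM in CDA-HFD and listed at 0 in all 3 ND libraries (adjusted p = 0.0124), while its paralog Xylt2 averaged 38.0, 38.5 and 38.9 FPKM in the same group order and was not called. The third was Ugdh, which makes UDP-glucuronic acid, with a log2 difference of 0.56 (adjusted p = 6.69e-05), named after its value was seen. Of 4 tested polymerase genes Ext1 rose (0.85, adjusted p = 0.00563) and its partner Ext2 fell (−0.58, adjusted p = 1.91e-04), both also named after their values were seen.

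In the list of heparan sulfate modifying enzymes, the genes that were called all fell. Of the 16 listed 6 were tested, 4 fell and 2 did not pass, with a median log2 difference of −0.83, and 7 were listed at 0 in all libraries. Hs3st3b1, a 3-O-sulfotransferase, stood at 0.833, 1.08 and 2.13 FPKM at 10 weeks and 1.51, 0.330 and 1.85 FPKM at 7 weeks, against 8.14, 9.87 and 9.13 FPKM in ND. All CDA-HFD libraries were low and none overlapped ND (log2 difference −2.19, SE 0.30, adjusted p = 7.23e-05). Hs6st1, a 6-O-sulfotransferase, averaged 10.6 FPKM at 10 weeks, 11.8 FPKM at 7 weeks and 23.2 FPKM in ND (−1.0, SE 0.19, adjusted p = 9.28e-04). The remaining 2, named after their values were seen, were the N-deacetylase and N-sulfotransferase genes Ndst1 (22.5, 21.7 and 40.4 FPKM at 10 weeks, 7 weeks and in ND) and Ndst2 (36.1, 29.8 and 58.1 FPKM), with adjusted p values of 5.71e-05 and 5.21e-05. Hs2st1 and Glce were not called at adjusted p values of 0.721 and 0.118, and Glce was called without ND 3 alone (0.0106 to 0.432 over the alternatives).

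Genes for editing and breakdown of heparan sulfate went both ways, with 3 of 9 tested higher and 4 lower and a median log2 difference of 0.17. Sulf2, an extracellular enzyme that removes 6-O-sulfate from finished chains, stood at 62.7, 53.5 and 50.3 FPKM at 10 weeks and 42.0, 42.8 and 47.5 FPKM at 7 weeks, against 7.63, 4.62 and 3.41 FPKM in ND. Every CDA-HFD library lay far above the highest ND library (log2 difference 3.07, SE 0.18, adjusted p = 5.36e-08). Its paralog Sulf1 was listed at 0 throughout. Sulf2 and Hs6st1, which remove and add the same sulfate group, thus went in opposite directions. Of the lysosomal genes, named after their values were seen, Hgsnat, Sgsh and Idua fell, with log2 differences of −0.62, −0.70 and −0.53, and Gusb and Naglu rose by 0.25 and 0.17. The calls of Idua and Naglu were lost without ND 1, and adjusted p values ran from 0.00206 to 0.0557 and from 0.0034 to 0.0688 over the alternatives.

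Of the 11 other proteins that carry heparan sulfate 5 were tested, 2 rose and 1 fell. Gpc1, a lipid-anchored glypican, stood at 13.5, 21.6 and 16.3 FPKM at 10 weeks and 20.0, 31.3 and 18.5 FPKM at 7 weeks, against 1.12, 1.13 and 1.20 FPKM in ND. The groups were far apart (log2 difference 3.26, SE 0.21, adjusted p = 1.34e-07). Agrn, a basement membrane proteoglycan, averaged 1.24 FPKM at 10 weeks, 0.470 FPKM at 7 weeks and 3.81 FPKM in ND (−1.40, SE 0.27, adjusted p = 9.74e-04). Nrp1, a coreceptor that can carry a chain, rose by 0.40 (adjusted p = 0.00145, named after its value was seen).

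**Figure D4:**
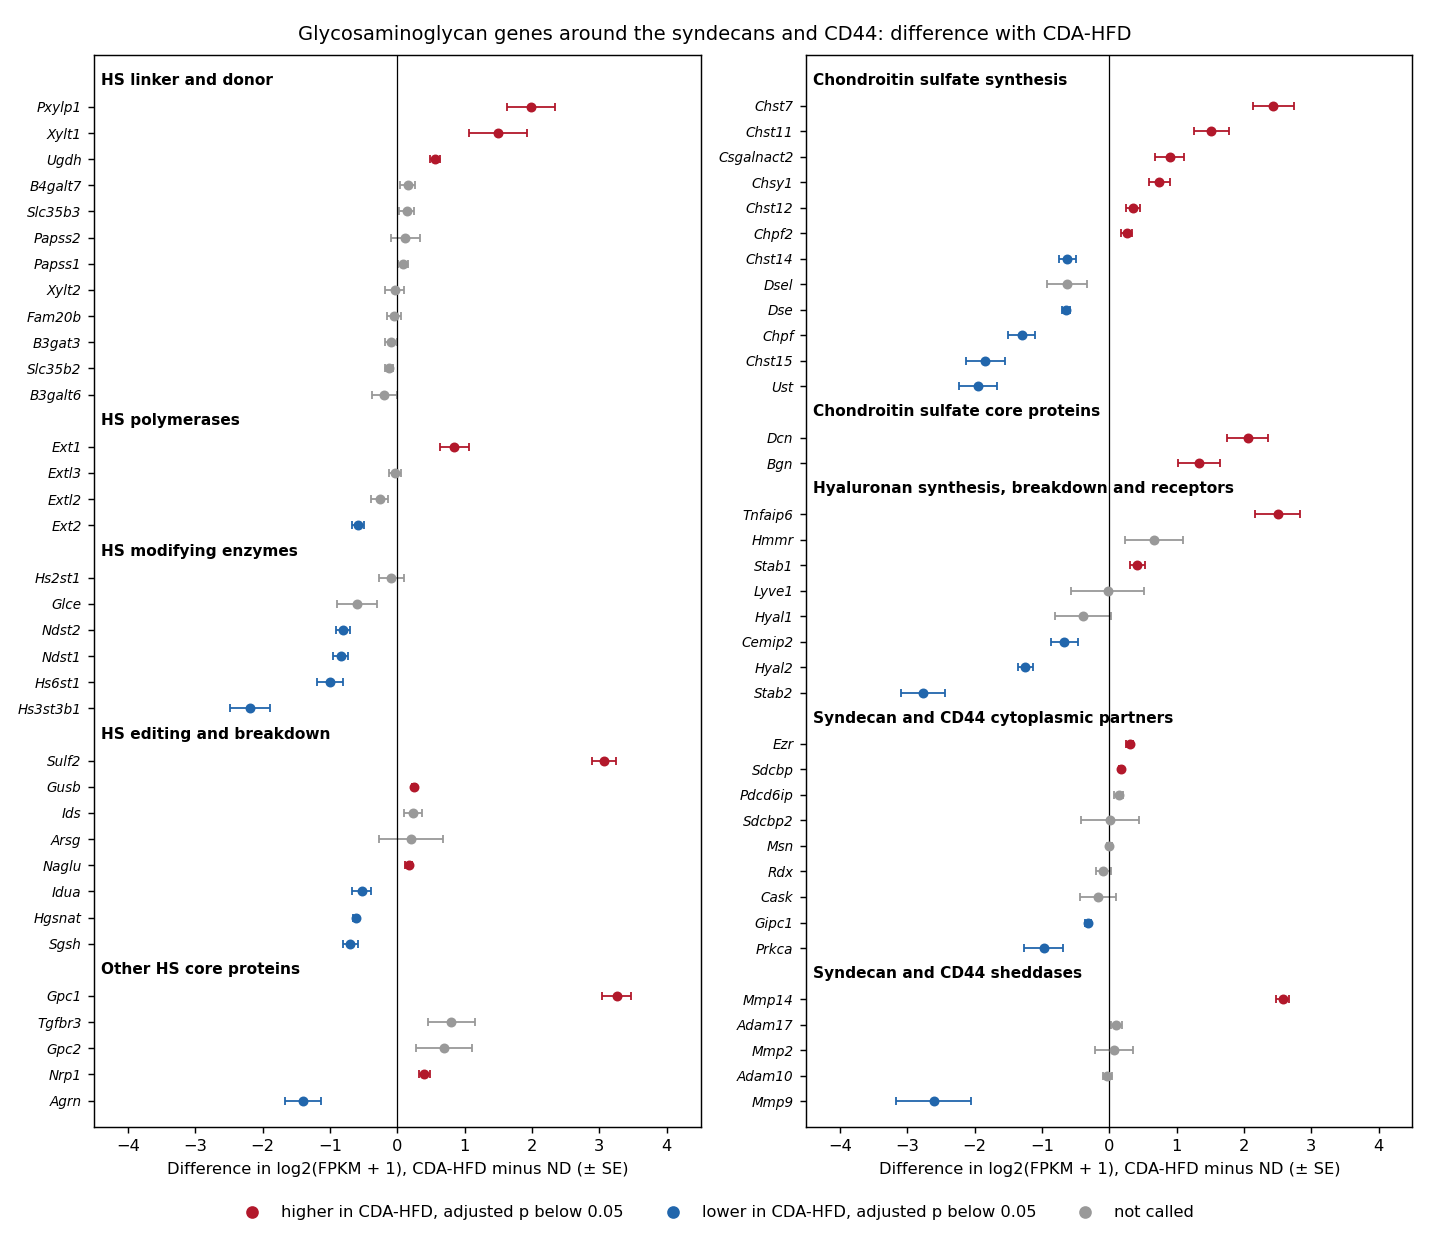
Difference in log2(FPKM + 1), CDA-HFD minus ND, for 71 of the 72 tested genes of the 10 lists (HS, heparan sulfate); points are limma estimates, bars their SE, and colours mark genes called at an adjusted p below 0.05. The called genes in the list of HS modifying enzymes all lie left of 0, and Sulf2, Gpc1 and Mmp14 lie farthest right in their lists.

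Chondroitin sulfate, the chain that Srgn and some CD44 forms carry, had 12 of 16 synthesis genes tested, of which 6 rose and 5 fell. Chst7 and Chst11, which sulfate chondroitin at different positions, averaged 7.23 and 1.86 FPKM at 10 weeks and 3.09 and 2.04 FPKM at 7 weeks, against 0.031 and 0.023 FPKM in ND (adjusted p = 3.59e-05 and 4.31e-04). Ust and Chst15, further sulfotransferases of chondroitin or dermatan sulfate, averaged 6.08 and 4.67 FPKM at 10 weeks and 4.41 and 2.32 FPKM at 7 weeks, against 22.1 and 13.8 FPKM in ND. Their log2 differences were −1.96 (SE 0.28) and −1.84 (SE 0.29), and that of the polymerizing factor Chpf was −1.30 (SE 0.20). The sulfotransferases thus split, with some gained and others reduced. Chst14 and Dse, both of dermatan sulfate synthesis and named after their values were seen, also fell, by 0.62 and 0.64. The calls of Chpf2 and Chst12, both higher and likewise named afterwards, were lost without ND 2 among other alternatives, over which adjusted p ran from 0.00856 to 0.0884 and from 0.0035 to 0.0925. The small matrix proteoglycans Dcn and Bgn rose, with means of 10.8 and 2.68 FPKM at 10 weeks, 12.8 and 4.63 FPKM at 7 weeks and 2.19 and 0.913 FPKM in ND (adjusted p = 1.56e-04 and 0.00364). Dcn is itself among the stellate cell and fibroblast markers, whose sums without it were 6.19 to 15.8 FPKM in CDA-HFD and 3.95 to 10.0 FPKM in ND, and the part of those cells in Dcn and Bgn was not tested.

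For hyaluronan, the ligand of CD44, 2 of 8 tested genes rose and 3 fell. Stab2, a hyaluronan-clearing scavenger receptor, stood at 5.42, 4.24 and 14.1 FPKM at 10 weeks and 8.74, 3.56 and 7.43 FPKM at 7 weeks, against 53.6, 49.5 and 49.0 FPKM in ND (log2 difference −2.77, SE 0.33, adjusted p = 4.19e-05). Tnfaip6, whose secreted product binds hyaluronan, was between 1.52 and 9.09 FPKM in CDA-HFD and listed at 0 in all ND libraries (adjusted p = 6.06e-05). Hyal2, a membrane-anchored hyaluronidase, averaged 34.0 FPKM at 10 weeks, 32.4 FPKM at 7 weeks and 79.5 FPKM in ND (−1.25, SE 0.11, adjusted p = 1.76e-06). Stab1 (0.41) and Cemip2 (−0.66) also passed and were named after their values were seen, but Stab1 lost its call without ND 3 and Cemip2 without ND 1 or ND 3, with adjusted p of 0.00321 to 0.0596 and 0.00722 to 0.0729 over the alternatives. Sinusoidal endothelial cells, which express Stab2, have Stab2 among their markers. Their 8 other markers summed to 78.4, 66.4 and 174 FPKM at 10 weeks and 143, 65.5 and 114 FPKM at 7 weeks. In ND the sums were 94.3, 138 and 108 FPKM, and the ranges of both diets overlapped. Single markers went both ways (3 of 8 tested higher, 1 lower). Clec4g stood at 34.2 to 90.1 FPKM in CDA-HFD and 13.7 to 28.1 FPKM in ND. Pecam1 stood at 9.87 to 23.7 FPKM in CDA-HFD and 55.8 to 89.8 FPKM in ND. The part of sinusoidal endothelial cells in Stab2 was not tested.

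Among proteins that cut syndecans and CD44, membrane-type metalloproteinase Mmp14 rose. It stood at 138, 140.1 and 126 FPKM at 10 weeks and 126, 139 and 136 FPKM at 7 weeks, against 20.9, 27.0 and 18.0 FPKM in ND (log2 difference 2.57, SE 0.10, adjusted p = 1.64e-09). The secreted gelatinase gene Mmp9 fell, at 4.77, 5.94 and 28.5 FPKM at 10 weeks and 6.13, 1.76 and 5.27 FPKM at 7 weeks, against 58.0, 32.3 and 42.9 FPKM in ND (−2.61, SE 0.55, adjusted p = 0.00519). Library 10w 3 stood apart from the other CDA-HFD libraries for Mmp9. Neutrophil markers, of cells that also express Mmp9, summed to 77.4 to 220 FPKM in CDA-HFD and 45.5 to 138 FPKM in ND. The highest sum was also that of 10w 3, but Retnlg alone made up 166 FPKM of it. In 10w 3, S100a8 (38.7 FPKM) and Mmp8 (12.3 FPKM) lay within the range of the other CDA-HFD libraries. S100a9 stood at 3.07 FPKM there and 3.04 FPKM in 10w 1, and Camp, Ngp and Cxcr2 were listed at 0 in 10w 3. Single neutrophil markers went both ways (1 of 4 tested higher, 1 lower). S100a9 was at most 3.07 FPKM in CDA-HFD and at least 12.4 FPKM in ND. Mmp8 averaged 17.9 FPKM in CDA-HFD and 0.877 FPKM in ND. Flow cytometry gates that the study describes for these macrophages leave out Ly6G+ cells, and the part of neutrophils in Mmp9 was not tested. Adam10 and Adam17 were abundant and not called, with means of 92.9 and 88.6 FPKM at 10 weeks, 101 and 96.9 FPKM at 7 weeks, and 98.8 and 86.2 FPKM in ND.

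Of the 9 cytoplasmic partners 5 were not called. Syntenin, encoded by Sdcbp and bound to syndecan tails, averaged 205 FPKM at 10 weeks, 228 FPKM at 7 weeks and 191 FPKM in ND, and the CD44 linker ezrin (Ezr) 103, 106 and 84.8 FPKM. Both rose, with log2 differences of 0.17 and 0.30. Gipc1 and Prkca fell, by 0.32 and 0.98, and Prkca stayed below 2 FPKM on average in each group. All 4 were named after their values were seen. Moesin (Msn), another CD44 linker, averaged 189, 188 and 189 FPKM in the same group order (log2 difference −0.00, SE 0.03, adjusted p = 0.994). Between 10 and 7 weeks none of the 72 tested genes of these lists was called by limma, and 8 (11.1%) had an unadjusted p below 0.05, against 15.5% of all genes tested.

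The genes with the profile most like each member over the 9 libraries were found by the root mean square difference of log2(FPKM + 1), each gene centred on its own mean. The measure describes likeness only, and genes that vary little score low against each other. Nearest to Sdc1 were the C-type lectin receptor gene Cd93 (0.23), the cysteine protease gene Ctsk (0.25) and Hpse (0.26). Nearest to Hpse were the semaphorin and VEGF coreceptor gene Nrp2 (0.25), the transmembrane glycoprotein gene Emb (0.25) and Sdc1 (0.26), so that Sdc1 and Hpse appeared in each other's lists. Nrp2 averaged 22.5 FPKM at 10 weeks, 29.3 FPKM at 7 weeks and 0.203 FPKM in ND.

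Nearest to Sdc2 were the prostacyclin synthase gene Ptgis (0.25), the potassium channel gene Kcnj16 (0.25) and the small nucleolar RNA gene Snora17 (0.36). Ptgis averaged 1.34 FPKM at 10 weeks, 1.82 FPKM at 7 weeks and 95.3 FPKM in ND. Sdc3 was nearest to the sphingosine-1-phosphate phosphatase gene Sgpp1, Scmh1 and the deacetylase gene Hdac10 (0.17 for each), and Sdc4 to Hopx (0.16), the acyltransferase gene Agpat2 (0.16) and Bcl2a1d (0.17), a member of a multigene family whose copies share reads. Cd44 was nearest to Zfp706, Ppdpf and the heme oxygenase gene Hmox1 (0.04 for each). Srgn was nearest to Rpl14-ps1, Btf3 and the ribosomal protein gene Rpl14 (0.03 for each), and reads of Rpl14 and its pseudogene Rpl14-ps1 may be shared.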

How the data were processed

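RNA of Ly6C-low F4/80+ liver macrophages was measured in 9 libraries. cDNA had been made with SMART-Seq HT and Nextera XT and sequenced as single-end reads of 75 bases. The submitters' processing notes name Trimmomatic (0.36.0), HISAT2 (2.2.1) and featureCounts (2.0.1) with GRCm38 (mm10), and the methods name Picard for duplicate removal and Cufflinks or featureCounts for gene values. The deposited values are FPKM per gene symbol. The methods speak of TPM, but the columns sum to between 444816 and 458788, and TPM columns would share 1 total. No count model was applied. Of 24776 entries 1 was incomplete, and 721 entries that shared 257 symbols were summed per symbol, which gave 24312 genes.

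Differences were fitted with limma (3.58.1, R 4.3.3; trend and robust) on log2(FPKM + 1), a pseudocount of 1, over all 9 libraries as 3 group means. The fit took the 11783 genes that reached 1 FPKM in 3 or more libraries. A gene was called when its two-sided p, adjusted after Benjamini and Hochberg over these genes, was below 0.05, and SE is the limma standard error. CDA-HFD means both times averaged.

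The members and the lists were chosen with earlier results of these data known. All members were named, and of each list the called genes with a log2 difference of at least 1 in size (at most the 5 largest), plus the 3 nearest profiles of each member. Other genes are said to be named after their values were seen. Cemip2 was matched through its older symbol Tmem2, and Igkc, Ly6g and Trac were not analysed here. The values of 1 called gene of the lists are not reported here, though the counts include it.

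Depth was estimated from whole-read steps in low values of single-transcript genes, 71.7% to 75.7% of which lay within 0.1 read of a whole number. A step of a different size could not be told apart, so the depth is an estimate. Removing duplicates keeps at most 1 single-end read per start position and strand, from which a limit of 325 to 373 FPKM per library was estimated for long genes. The highest gene over 1000 bases lay above it in all 9 libraries, at 349 to 385 FPKM, so the limit and the corrected values are approximate. Promoter windows came from RefSeq (GRCm38.p6) and gene positions from GENCODE M21. Alternatives varied the pseudocount, filter, scaling, variance model, replicate block and libraries.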

Additional observations from a re-analysis of the deposited data

How the results depend on the processing

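Replicates here are libraries of separate animals, 3 per group, and all p-values rest on their spread. No diet difference of the 7 genes changed sign under any alternative. With a pseudocount of 0.1 or 5, the log2 difference between CDA-HFD and ND was 5.66 or 3.13 for Sdc1, −6.35 or −3.19 for Sdc2 and 5.94 or 3.12 for Hpse, as follows from levels near 0 in 1 group. For Srgn it was 0.33 with trimmed mean scaling and 0.24 with quantile normalization. A correction for the estimated limit of duplicate removal, chosen after seeing the data, gave −1.65 for Sdc3 and 0.44 for Srgn, and ND shares of 10.6% for Sdc2, 83.4% for Sdc3 and 5.81% for Sdc4.

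Between 10 and 7 weeks the number of genes called was 5 with a pseudocount of 0.1, 2 without trend and robust, and between 2 and 18 when 1 library was left out (4 without ND 1, 5 without 7w 1, 2 without 7w 2, 7 without 7w 3, 2 without 10w 2 and 4 without 10w 3), against 15. The cause was not tested. With 1 library left out, the 10-week minus 7-week estimate ran over −0.66 to 0.028 for Sdc2, −0.28 to 0.22 for Sdc3 and −0.28 to 0.15 for Hpse, reversing without 7w 1 (Sdc2, 0.028), 7w 3 (Sdc3, 0.11), 10w 1 (Sdc3 0.22, Hpse 0.04) and 7w 2 (Hpse, 0.15). Same-numbered libraries did not deviate together (correlations of −0.06 to 0.09). With a replicate block, 5474 genes were called between CDA-HFD and ND, against 5539 without it, and 17 against 15 between 10 and 7 weeks.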
